A study of Mus musculus with 4 samples.

Results

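Hepatocytes, the main cell type of the liver, were compared between 3 of the 4 single-cell libraries of a mouse study of liver cancer. Libraries 2 and 4 were each set against library 1, over all genes, and the genes that differed in the same direction in both comparisons are described here. Cells were selected on their own UMI counts (counted RNA molecules), so the genes of the rule are described without a test. A barcode counted as a hepatocyte with at least 500 UMIs, 200 genes and under 20% mitochondrial UMIs, at least 10 UMIs of the hepatocyte genes Alb, Apoa1, Apoa2 and Ttr in sum, and at most 1 UMI of 12 genes of other cell types (Ptprc, Coro1a, Laptm5, Tyrobp, Cd79a, Cd3g, Clec4g, Dnase1l3, Plvap, Egfl7, Dcn and Klf1). This gave 11888 hepatocytes in libraries 1, 2 and 4 (2362, 4389 and 5137), of 16069 in all 4 libraries and of 38072 barcodes in all.

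The study followed a mouse model in which liver cancer is induced by genes that the sources used here do not name. Normal liver was sampled at week 0 and tumor at weeks 4 and 8 and at a last time, with 1 sample for each; for the last, the sample's label says week 10 and the design text says week 12. Strain, sex, age and how many animals were used are not given in those sources. No label or file pairs a library (the number at the end of each barcode) with a sample, so no library has a week or a tissue here, and "library 1" is not called normal liver. Each library is 1 library without a replicate, so a difference between samples and one between preparations cannot be told apart. No p-value is given, and every interval is a 95% interval for counting error only.

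As background, hepatocytes make most of the proteins of blood plasma and divide metabolic work along the lobule. Cells near the portal vein (periportal) break down amino acids and make urea and glucose, while cells near the central vein (pericentral) make glutamine and carry many cytochrome P450 enzymes under the control of Wnt and beta-catenin signalling. In mice, pulses of growth hormone keep male-biased genes such as the major urinary proteins high. Liver tumors often express genes of the fetal liver again, among them H19, Igf2 and Afp.

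The libraries differed in ways that touch every value below. Hepatocytes of libraries 1, 2 and 4 held 5525396, 29401825 and 29412364 UMIs, with medians of 1826, 4554 and 3856 UMIs and 808, 1793 and 1486 genes per cell, and those of library 3 held 14463003 UMIs with medians of 2121 and 839. In library 1, 59.9% of the hepatocytes had no mitochondrial UMI at all, against 0%, 0.0478% and 0.331% in libraries 2 to 4. The limit on genes of other cell types left out 292, 1766, 402 and 697 barcodes of libraries 1 to 4 that met the rest of the rule. The 14 hepatocyte markers were all detected in each library, but they include the 4 genes on which cells were selected. Levels are given as CPM (a gene's UMIs per 1e6 UMIs of the summed hepatocytes). Under the calling rule given below, 2 of these markers counted as higher in both comparisons and 3 as lower. In libraries 1 to 4, Ahsg stood at 1172, 5318, 1224 and 3731 CPM, and Fabp1 at 32576, 5600, 21530 and 7343 CPM. Hnf4a, the transcription factor that maintains hepatocyte identity, differed less, at 116, 94.2, 113 and 83.9 CPM. The 4 marker genes of the rule stayed within 2-fold of library 1 in libraries 2 and 4, with Alb at 1969, 3268 and 2762 CPM in libraries 1, 2 and 4. Of the hepatocyte barcodes, 577 of 16069 carried a barcode sequence that also occurs in another library. Just inside the marker threshold (10 to 12 UMIs) and just outside it (7 to 9 UMIs), library 2 held H19 at 2629 and 2425 CPM and library 1 held Mup7 at 6663 and 5592 CPM.

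Of 31053 genes, 10842 had at least 100 UMIs over libraries 1, 2 and 4 and were counted. A gene was called when its CPM in summed hepatocytes differed at least 2-fold and the interval of the ratio excluded 1. Library 2 against library 1 gave 4705 genes higher (43.4% of those counted) and 649 lower (5.99%), and library 4 against library 1 gave 3385 higher (31.2%) and 617 lower (5.69%). In both comparisons 3253 genes were higher (30.0%) and 466 were lower (4.30%), and 6 were called in opposite directions. The comparisons share library 1, so their agreement is fixed in part by that library and is not evidence of its own. The median log2 ratio over all counted genes was 0.82 for library 2 to 1 and 0.55 for library 4 to 1. With these medians set to 0, 1551 genes (14.3%) were higher and 1273 (11.7%) lower in both, so that 54.9% of the calls were higher in place of 87.5%. Counts for gene groups are therefore given on both scales. They are read beside the shares of all counted genes, 30.0% higher and 4.30% lower (14.3% and 11.7% after centring). The lists and members were chosen with earlier results of these data known, so a high count may in part reflect that choice.

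**Figure D1:**
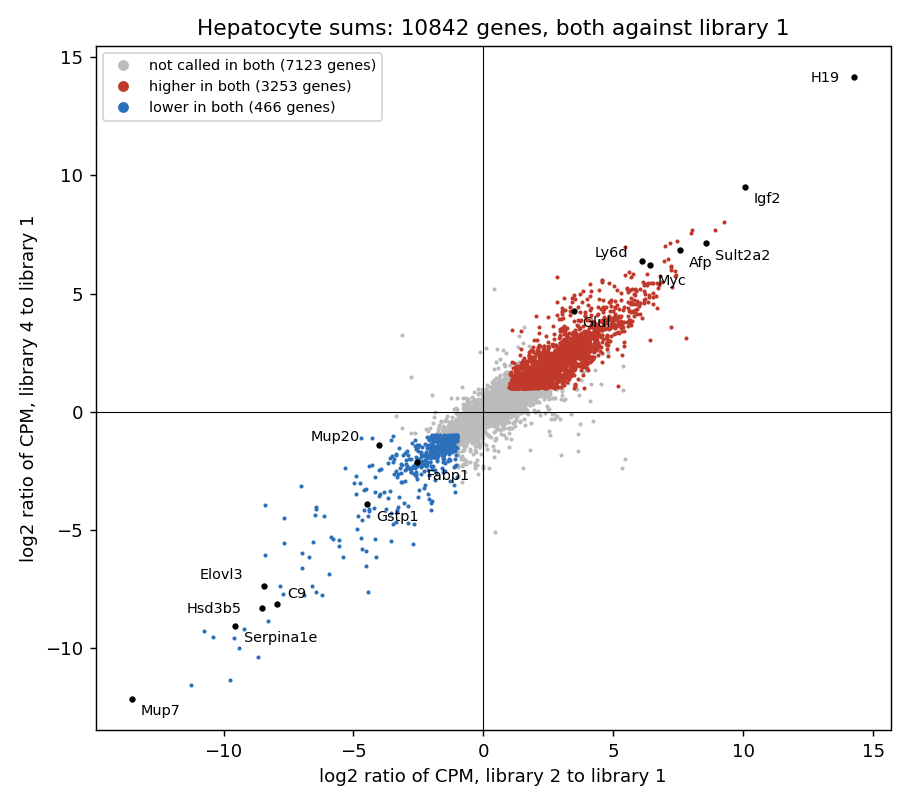
Each point is 1 of the 10842 counted genes, with the log2 ratio of CPM in summed hepatocytes of library 2 to 1 on the x axis and of library 4 to 1 on the y axis; colours mark genes called higher (3253) or lower (466) in both. H19 and Igf2 lie at the upper end (14.28 and, as a lower bound against 3 UMIs, 10.06 on the x axis), and Mup7 and Serpina1e at the lower end (-13.53 and -9.57).

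The highest ratios among the named genes belonged to H19 and Igf2, genes of the fetal liver. Afp and Gpc3, also of the fetal liver, lay below some genes of other groups. H19, a long noncoding RNA of an imprinted locus that is abundant in fetal liver, had 1 UMI in library 1 (0.181 CPM) against 3597 CPM in library 2, 629 in library 3 and 3337 in library 4. Its log2 ratio was 14.28 (11.80 to 19.58) for library 2 to 1 and 14.17 (11.69 to 19.47) for library 4 to 1, and libraries 2 and 4 lay close together. Igf2, a fetal growth factor gene of the same locus, had no UMI in library 1, 579.9 CPM in library 2, 24.1 in library 3 and 401 in library 4. It was at least 1068-fold higher in library 2 and at least 739-fold higher in library 4, against a floor of 3 UMIs in library 1. Afp, which encodes the fetal counterpart of albumin, stood at 0.905, 172, 29.9 and 103 CPM in libraries 1 to 4. Gpc3, a cell surface proteoglycan of fetal liver and liver tumors, had 0.181 CPM in library 1 and 23.2 CPM in both libraries 2 and 4. For these genes library 1 was the lowest of the 4 libraries, library 3 came next and libraries 2 and 4 were the highest.

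Of the 15 counted genes of the fetal and oncofetal list, 8 were higher in both and none was lower, with 7 higher and 1 lower after centring. The other 4 higher members were Dlk1, Meg3, Ly6d and Scd2. Meg3, a maternally expressed noncoding RNA, had no UMI in library 1 and 9.25, 11.4 and 23.3 CPM in libraries 2 to 4. Ly6d, a surface protein known from lymphoid and epithelial cells, stood at 5.43, 370.2, 38.0 and 454 CPM. Members that did not agree were the imprinted genes Peg10, with 0.362 CPM in library 1, 14.4 in library 2 and 0.0680 in library 4, and Peg3, with 3.44, 4.69 and 0 CPM, and the small adaptor gene Bex2, with 1.27, 16.0 and 0.646 CPM. These 3 were chosen after their values were seen, as members in which libraries 2 and 4 went apart.

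Free RNA in the droplets was read from lymphocyte-gated barcodes (at least 2 UMIs of Cd3g, Cd3e, Cd79a and Cd79b and under 10 of the hepatocyte markers), which should lack these genes. Thinned to 1000 UMIs per cell, H19 was found in 0.0445%, 79.5%, 10.4% and 67.6% of hepatocytes of libraries 1 to 4, and in 0%, 50.3%, 6.90% and 54.6% of lymphocyte-gated barcodes. Without thinning, the shares were 94.9% of hepatocytes and 81.7% of lymphocyte-gated barcodes in library 2 (medians of 4554 and 2545 UMIs), and 88.5% and 75.5% in library 4 (3856 and 1714 UMIs). On the CPM scale, H19 was 6.38-fold higher in hepatocytes than in lymphocyte-gated barcodes of library 2 and 4.77-fold higher in those of library 4. For Igf2 the thinned shares were 38.6% and 32.6% in library 2 and 26.1% and 19.1% in library 4, so the share of hepatocytes with an Igf2 UMI lay only a little above background there. For Afp the thinned shares in hepatocytes lay within the interval of the background, at 6.75% against 4.79% (2.76% to 7.66%) in library 2 and 5.86% against 4.61% (2.87% to 6.95%) in library 4. For Sult2a2 the distance was wider, with 15.5% of hepatocytes against 2.99% of lymphocyte-gated barcodes in library 2. How many single hepatocytes express H19, Igf2 or Afp can therefore not be read from these shares.

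**Figure D2:**
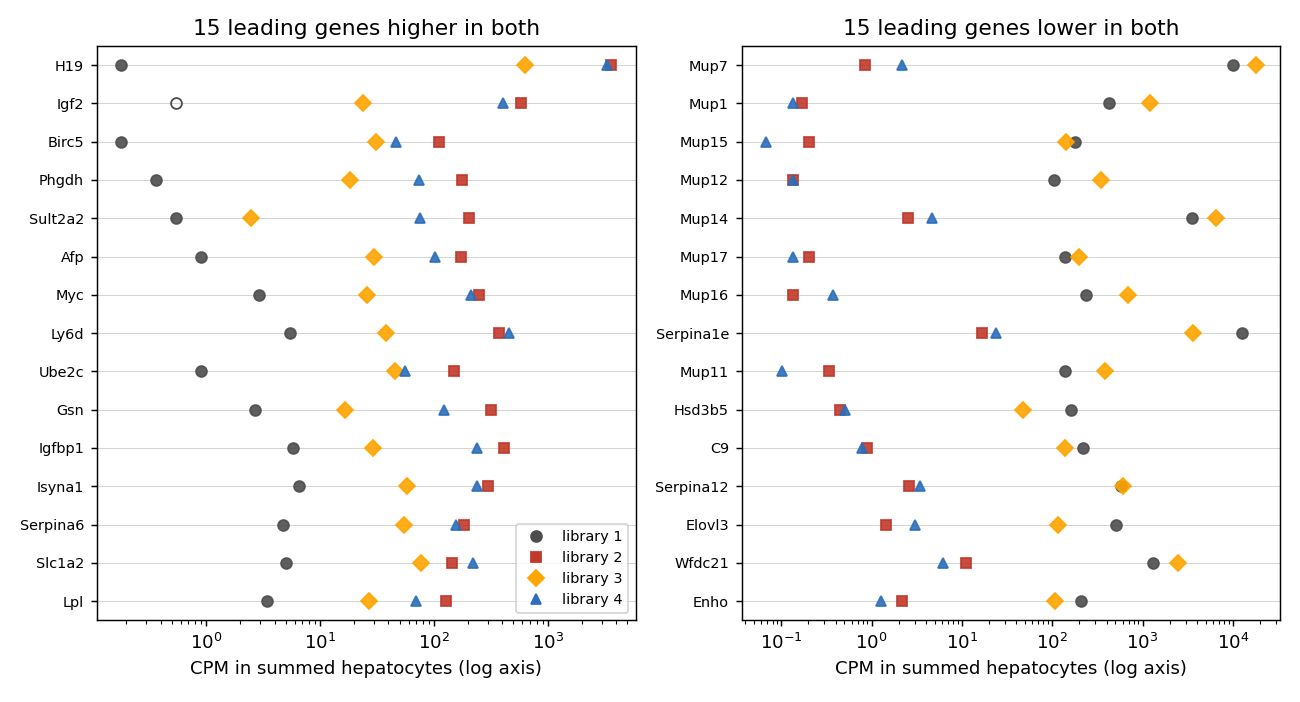
CPM in summed hepatocytes (log axis) of libraries 1 to 4 for the 15 leading genes higher in both (left) and lower in both (right); an open symbol marks a count of 0, drawn at the level of 3 UMIs. On the left library 3 lies between library 1 and libraries 2 and 4 for all 15 genes, and on the right for 6 of 15, the other 9 being highest in library 3.

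The lowest ratios belonged to the major urinary proteins (Mup), small lipocalins that male mice secrete from the liver into urine as pheromone carriers. Mup7 stood at 10089 CPM in library 1, 0.850 in library 2, 18047 in library 3 and 2.18 in library 4. Its log2 ratio was -13.53 (-14.16 to -12.97) for library 2 to 1 and -12.18 (-12.56 to -11.83) for library 4 to 1. Mup14 held 3499, 2.55, 6527 and 4.66 CPM, and Mup1 held 421, 0.170, 1198 and 0.136 CPM. All 15 counted members of the list were lower in both, centred or not, beside 4.30% (11.7% centred) of all counted genes. Summed over 21 Mup genes, the level was 22439 CPM in library 1, 252 in library 2, 47509 in library 3 and 1475 in library 4. Mup20, also called darcin, a male pheromone, kept most of what was left: it stood at 229.9 CPM in library 2 and 1404 in library 4, against 3701 in library 1 and 12789 in library 3. At 1000 UMIs per cell, Mup7 was found in 97.3% of library 1 hepatocytes and in 0.223% and 0.298% of those of libraries 2 and 4. Mup7 was picked for its ratio in the same comparison, so this distance says nothing about other genes. Lymphocyte-gated barcodes of library 1 held Mup7 in 21.9% at the same depth.

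Mup genes are near-identical copies, so reads can be split or lost between them and the level of a single copy is uncertain. The start regions of 2 abundant copies, Mup7 and Mup14, are shown for their likeness near the gene start. They do not show how reads were split, since a 3′ kit reads the other end of the transcript, which was not compared. They run from 250 bases before to 50 after the annotated start, 5′ to 3′ on the strand of the gene, from RefSeq on GRCm38.p6, and capitals mark the bases that differ between the pair where they overlap without gaps.
Mup7, chr4:60070426-60070725, minus strand: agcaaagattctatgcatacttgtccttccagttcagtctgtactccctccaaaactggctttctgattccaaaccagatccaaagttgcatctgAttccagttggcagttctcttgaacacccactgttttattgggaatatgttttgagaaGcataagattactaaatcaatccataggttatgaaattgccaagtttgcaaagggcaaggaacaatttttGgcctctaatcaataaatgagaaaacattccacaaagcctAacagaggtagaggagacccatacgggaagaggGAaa
Mup14, chr4:61303949-61304248, minus strand: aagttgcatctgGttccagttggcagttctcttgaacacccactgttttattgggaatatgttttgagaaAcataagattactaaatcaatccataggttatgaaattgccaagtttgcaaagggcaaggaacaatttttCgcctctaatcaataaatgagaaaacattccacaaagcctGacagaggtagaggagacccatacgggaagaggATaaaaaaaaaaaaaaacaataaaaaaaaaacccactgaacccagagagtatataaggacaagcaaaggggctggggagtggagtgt
The annotated starts are offset by 83 bases, and 211 of 217 overlapping bases (97.2%) are the same. Mup11, Mup15 and Mup17 shared 98.5%, 97.7% and 97.7% of the overlapping bases with Mup7. For Mup3 and Mup21 the shares were 64.5% and 61.9%, which can understate their likeness because no gaps were allowed. All of these copies were lower in both, with log2 ratios for library 2 to 1 of -10.42 (Mup14), -8.67 (Mup11), -9.77 (Mup15), -9.42 (Mup17), -8.42 (Mup3) and -6.56 (Mup21).

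Copies of alpha-1 antitrypsin, the protease inhibitor of plasma, were counted lower too, but by very different amounts. As for the Mup genes, reads can be split or lost between such copies, so the ratio of a single copy is uncertain. Whether the copies themselves differ was not tested. Serpina1e stood at 12750 CPM in library 1, 16.8 in library 2, 3591 in library 3 and 23.6 in library 4, a log2 ratio of -9.57 (-9.70 to -9.44) and -9.08 (-9.19 to -8.97). Serpina1c held 574, 24.0, 410.1 and 32.0 CPM (log2 ratios -4.58 and -4.17), and Serpina1d held 1091, 121, 427 and 237 CPM (-3.18 and -2.20). Serpina1b held 3959, 1056, 1149 and 1685 CPM (-1.91 and -1.23), and Serpina1a held 379.9, 128, 304 and 161 CPM (-1.56 and -1.24). The start regions of Serpina1e, Serpina1c and Serpina1a are shown because they are nearly alike while the ratios are not. Capitals in Serpina1c and Serpina1a mark differences from Serpina1e, and those in Serpina1e mark differences from Serpina1c.
Serpina1e, chr12:103956848-103957147, minus strand: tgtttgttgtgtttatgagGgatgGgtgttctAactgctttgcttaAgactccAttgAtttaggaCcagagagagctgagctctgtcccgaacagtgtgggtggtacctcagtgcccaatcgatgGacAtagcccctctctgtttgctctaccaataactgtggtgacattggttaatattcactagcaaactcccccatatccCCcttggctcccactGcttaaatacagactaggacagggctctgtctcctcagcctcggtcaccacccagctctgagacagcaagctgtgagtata
Serpina1c, chr12:103904901-103905200, minus strand: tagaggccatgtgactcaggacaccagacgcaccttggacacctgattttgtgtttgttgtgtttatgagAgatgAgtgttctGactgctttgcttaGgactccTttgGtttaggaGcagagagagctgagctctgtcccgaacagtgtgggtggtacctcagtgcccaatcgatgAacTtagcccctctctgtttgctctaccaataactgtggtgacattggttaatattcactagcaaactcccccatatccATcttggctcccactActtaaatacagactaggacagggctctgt
Serpina1a, chr12:103863570-103863869, minus strand: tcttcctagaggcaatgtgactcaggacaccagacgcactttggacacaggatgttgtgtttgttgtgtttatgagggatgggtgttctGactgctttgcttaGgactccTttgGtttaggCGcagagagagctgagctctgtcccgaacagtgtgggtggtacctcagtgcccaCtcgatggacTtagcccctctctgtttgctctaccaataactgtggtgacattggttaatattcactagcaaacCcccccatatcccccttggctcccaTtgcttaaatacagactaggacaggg
Serpina1e shares 237 of 249 overlapping bases (95.2%) with Serpina1c and 233 of 243 (95.9%) with Serpina1a. Of the 11 members of the serpin list, 7 were lower and 3 higher in both (8 and 3 after centring). The lower members included Serpina12, also known as vaspin, at 581, 2.58, 613 and 3.43 CPM in libraries 1 to 4. The higher members included Serpina6, which encodes the binding globulin of corticosteroids, at 4.71, 185, 55.3 and 155 CPM, and Serpina7, the binding globulin of thyroxine, at 1.63, 75.5, 18.0 and 60.7 CPM.

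**Figure D3:**
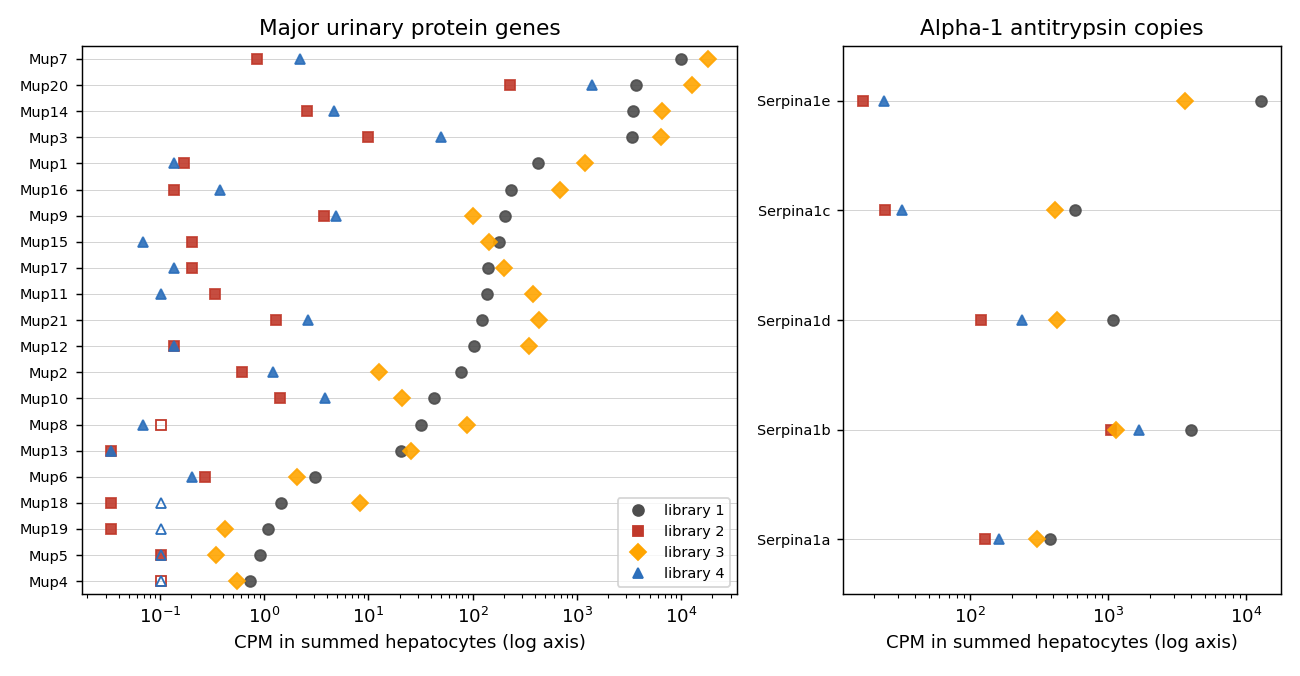
CPM in summed hepatocytes (log axis) of libraries 1 to 4 for the 21 Mup genes (left) and the 5 alpha-1 antitrypsin copies (right); an open symbol marks a count of 0, drawn at the level of 3 UMIs. Mup7 lies at 10089 and 18047 CPM in libraries 1 and 3 and near 1 to 2 CPM in libraries 2 and 4, and Serpina1e has the widest range among the antitrypsin copies, from 12750 CPM in library 1 to 16.8 in library 2.

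Other male-biased genes were mostly lower and female-biased genes mostly higher. Of 9 counted male-biased genes, 7 were lower in both and none was higher (8 lower after centring). Hsd3b5, a steroid-converting enzyme of male liver, stood at 163 CPM in library 1 and at 0.442, 46.9 and 0.510 CPM in libraries 2 to 4. Elovl3, which elongates fatty acids, stood at 503, 1.46, 116 and 3.03 CPM. Leading lower genes on none of the lists were Wfdc21, of a family of small secreted inhibitors, with log2 ratios of -6.90 and -7.75, and Enho (210.5, 2.18, 106 and 1.26 CPM), which encodes the peptide adropin. Cyp2d9 (119, 75.1, 87.0 and 128 CPM) and Cyp7b1 (33.7, 25.3, 86.2 and 16.9 CPM), both P450 enzymes of male liver, were the 2 counted members not called. Of 10 counted female-biased genes, 8 were higher in both and none was lower (7 higher after centring). The sulfotransferase gene Sult2a2 stood at 0.543, 204, 2.49 and 75.7 CPM, a log2 ratio of 8.56 (7.01 to 10.83) and 7.12 (5.57 to 9.40). Its neighbour in sequence Sult2a1 had no UMI in library 1 and 45.1 and 16.7 CPM in libraries 2 and 4, so at least 83.1-fold and at least 30.7-fold higher; reads of such paralogs can be split between them. The Y-linked gene Eif2s3y was present in all 4 libraries at 35.8, 49.5, 27.9 and 33.0 CPM, and Xist, which marks a silenced X chromosome, had 0, 3, 0 and 1 UMIs.

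Genes of the lobule's zones went apart. Of 16 pericentral genes, 11 were higher and 1 was lower in both (9 and 3 after centring). Glul, which makes glutamine, stood at 534 CPM in library 1, 5912 in library 2, 1351 in library 3 and 10332 in library 4, a log2 ratio of 3.47 (3.42 to 3.52) and 4.28 (4.22 to 4.33). Slc1a2, a glutamate transporter of cells around the central vein, held 5.07, 144, 77.5 and 220.2 CPM. Gulo, which completes vitamin C synthesis, held 21.2, 374, 79.0 and 361 CPM, and the coumarin hydroxylase gene Cyp2a5 held 14.7, 366, 55.3 and 225 CPM. The most abundant members not called in both were Rgn, a calcium-binding lactonase (1312, 1243, 895 and 2245 CPM), and Aldh1a1, which oxidises retinal (282, 109, 181 and 172 CPM). The member lower in both was Cyp2c54, a P450 gene with close paralogs, at 24.4, 2.21, 8.85 and 11.9 CPM. At 1000 UMIs per cell, Glul was found in 8.72%, 81.4%, 34.8% and 93.8% of hepatocytes of libraries 1 to 4 and in 4.71%, 61.4%, 25.4% and 74.1% of lymphocyte-gated barcodes, so the shares in single cells are read against a high background.

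Periportal genes showed the opposite direction, with 7 of 16 lower and 1 higher in both (11 and 1 after centring). Sds, which breaks down serine, stood at 213, 9.80, 312 and 1.05 CPM in libraries 1 to 4. Hal, which breaks down histidine, stood at 178, 10.1, 151 and 2.45 CPM, and the glutaminase gene Gls2 at 153, 20.4, 134 and 5.81 CPM. Cyp2f2, a P450 enzyme often used to mark the portal zone, held 56.6, 5.85, 79.2 and 3.43 CPM. In each of these 4 genes library 3 lay within 2-fold of library 1, while library 4 lay below library 2. The urea cycle gene Ass1 did not follow them (4731, 3304, 2448 and 5206 CPM), nor did Pck1, the gatekeeper of glucose synthesis, in both comparisons (810.4, 272, 1195 and 430.1 CPM). The higher member was Apoa4, an apolipoprotein, with 32.0, 505, 87.5 and 131 CPM.

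Targets of Wnt and beta-catenin were higher almost throughout, 12 of 13 in both and none lower (9 of 13 after centring), beside 30.0% of all counted genes (14.3% after centring). Notum, a secreted inhibitor of Wnt, held 0.543, 29.1, 9.61 and 30.4 CPM in libraries 1 to 4, and Nkd1, a feedback inhibitor inside the cell, held 1.99, 26.0, 15.4 and 62.0 CPM. The ammonium transporter gene Rhbg held 0.724, 17.0, 11.7 and 32.1 CPM, and the Wnt co-receptor gene Lgr5 held 0.362, 10.7, 2.56 and 9.18 CPM. Tbx3 was the member not called in both, at 24.3, 44.3, 22.7 and 55.2 CPM. On the list of feedback genes of Ras and ERK signalling, 1 of 10 counted members was higher in both (Dusp4, a phosphatase, at 0.543, 1.84, 0.761 and 3.16 CPM) and none was lower, and after centring none was higher and 1 was lower. Hras itself stood at 178, 139.5, 123 and 129 CPM.

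Growth and division genes were higher. Myc, the transcription factor that drives ribosome production and growth, stood at 2.90 CPM in library 1, 247 in library 2, 25.9 in library 3 and 211 in library 4, a log2 ratio of 6.41 and 6.19. Of 30 Myc and nucleolar genes 18 were higher and 2 lower in both (9 and 2 after centring). Nop56, a nucleolar assembly protein, held 8.69, 90.5, 21.4 and 42.0 CPM, and Cad, which starts pyrimidine synthesis, had log2 ratios of 4.28 and 2.91. The most abundant uncalled members were the mitochondrial chaperones Hspe1 (1548, 1642, 1600 and 1373 CPM) and Hspd1 (729, 1746, 882 and 1365 CPM). Lymphocyte-gated barcodes had Myc at 103, 263, 142 and 375 CPM, at or above the hepatocytes of the same library; lymphocytes express Myc themselves, so this is no measure of free RNA.

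Of 32 genes of G2 and M phase, 28 were higher and none lower in both (27 after centring), and of 27 genes of S phase 20 were higher and none lower (15 after centring). Birc5, a subunit of the complex that guides chromosomes apart, had 1 UMI in library 1 (0.181 CPM), 112 CPM in library 2 and 46.5 CPM in library 4, with library 3 between them and library 1. Ube2c, which marks cyclins for destruction at the end of mitosis, held 0.905, 149, 45.7 and 56.3 CPM. Mcm5, part of the helicase that opens DNA for copying, had no UMI in library 1 and 26.9, 2.83 and 7.65 CPM in the others, at least 49.5-fold higher in library 2 and at least 14.1-fold in library 4. In cells thinned to 1000 UMIs, 16 of the G2 and M genes and 6 of the S phase genes were higher in both. The hepatocyte rule was applied again to the thinned counts. It kept 1193, 2443, 2315 and 1944 cells of libraries 1 to 4, so the set of cells changed along with the depth. Of all genes counted in that setting 32.9% were higher. How many members of these lists were still counted there is not given, so their shares cannot be set against it. Lymphocyte-gated barcodes held Birc5 at 40.9, 142, 32.1 and 68.2 CPM, so library 1 is the library in which hepatocytes lay far below them. Library 2 was above library 4 for most of these genes, as it was for 2923 of the 3253 genes higher in both.

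On the p53 and arrest list, 9 of 12 counted genes were higher and none lower in both (5 after centring). Cdkn1a, which halts the cell cycle, stood at 11.2, 135, 121 and 100.4 CPM in libraries 1 to 4, and Trp53 itself at 12.8, 74.9, 24.2 and 56.3 CPM. Mdm2, which marks p53 for destruction, was not called (15.4, 27.2, 19.9 and 22.4 CPM).

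**Figure D4:**
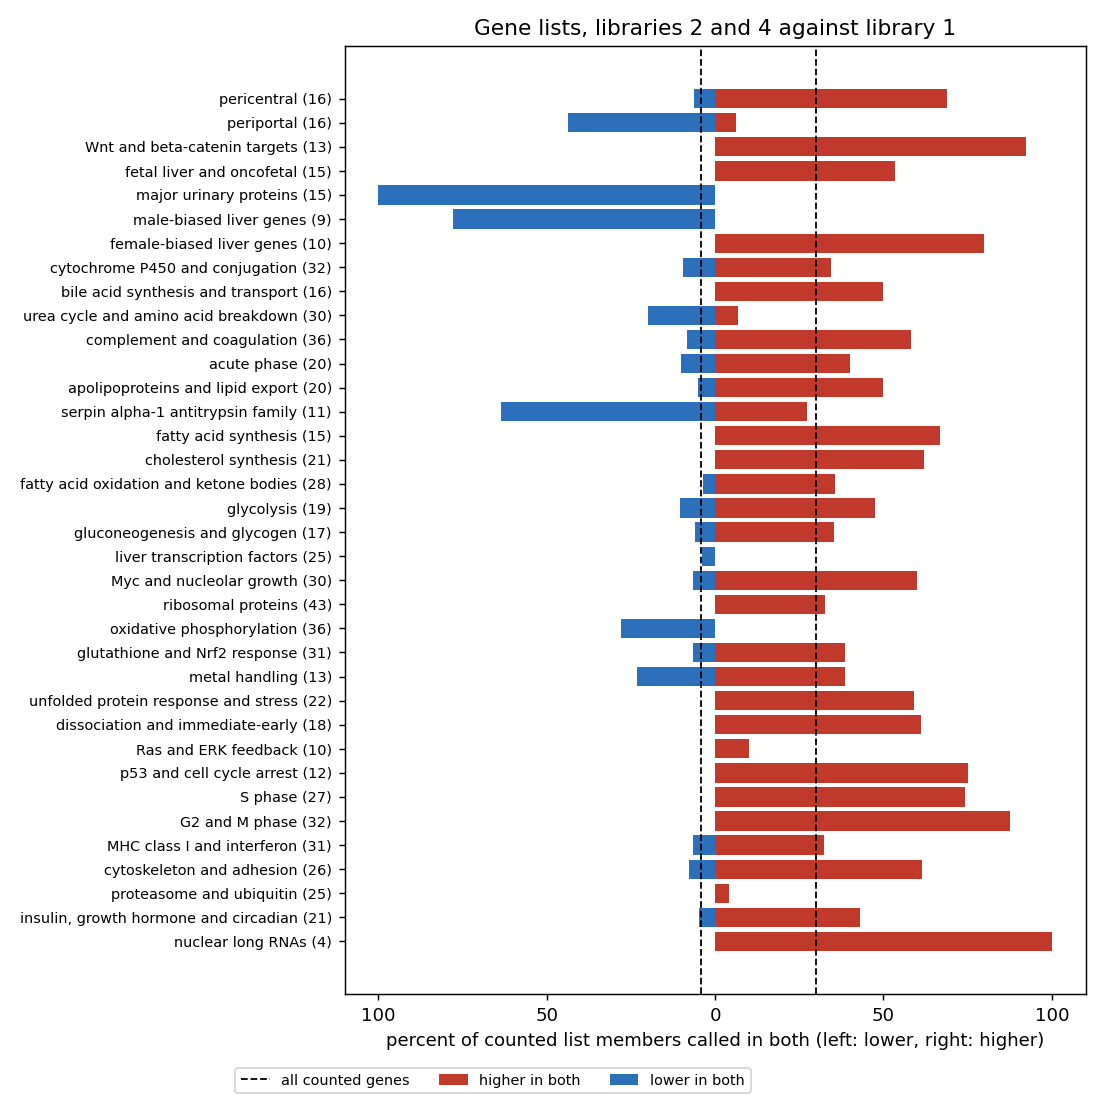
Share of the counted members of each gene list (number in brackets) called higher (right) or lower (left) in both comparisons, uncentred; dashed lines mark the same share over all counted genes, 30.0% and 4.30%. Mup genes stand at 100% lower, Wnt and beta-catenin targets at 92.3% higher, and liver transcription factors at 0% on the higher side. The lists and their members were chosen with earlier results of these data known.

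Genes of fatty acid and cholesterol synthesis were more often higher than lower, as were all counted genes (30.0% higher and 4.30% lower). In fatty acid synthesis 10 of 15 counted genes were higher and none lower in both (8 and 1 after centring), among them Fasn, the fatty acid synthase, at 36.9, 276, 89.4 and 238 CPM in libraries 1 to 4 and its regulator Srebf1 at 4.71, 49.1, 14.9 and 25.1 CPM. In cholesterol synthesis 13 of 21 were higher and none lower. After centring only 5 were higher and 1 lower, beside 14.3% and 11.7% of all counted genes. Idi1, an enzyme of isoprenoid synthesis, was not called and held 718, 232, 731 and 538 CPM. In fatty acid oxidation 10 of 28 were higher and 1 lower (35.7% and 3.57%, 6 and 3 genes after centring), near the shares of all counted genes (30.0% and 4.30%). Cidec, a lipid droplet protein, held 0.362, 19.8, 1.24 and 11.3 CPM, and Pdk4, which holds back glucose oxidation, held 2.90, 71.3, 18.5 and 62.3 CPM. The lower member was Fabp1, the fatty acid binding protein of liver, at 32576, 5600, 21530 and 7343 CPM, a log2 ratio of -2.54 and -2.15. Lpl, a lipase that healthy adult hepatocytes make little of, was among the leading genes with 3.44, 128, 26.8 and 70.3 CPM. Among apolipoproteins and lipid export genes, 10 of 20 were higher and 1 lower (7 and 3 after centring), with Apob at 76.7, 893, 397 and 587 CPM.

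Bile acid and drug metabolism genes were mixed. Of 16 bile acid genes 8 were higher and none lower in both (7 and 2 after centring). Cyp7a1, the rate-limiting enzyme of bile acid synthesis, stood at 2.71, 65.8, 19.4 and 72.3 CPM in libraries 1 to 4, and Abcc2, an export pump at the bile canaliculus, at 9.59, 159, 55.1 and 113 CPM. Baat, which conjugates bile acids, held 224, 88.6, 148 and 131 CPM and was not called in both. Of 32 P450 and conjugation genes 11 were higher and 3 lower (7 and 4 after centring), a share near that of all counted genes. Por, the electron donor of P450 enzymes, held 6.52, 132, 33.9 and 84.1 CPM, and the carboxylesterase gene Ces3b held 19.2, 0.272, 21.6 and 0.884 CPM. In the glutathione list 12 of 31 were higher and 2 lower (8 and 3 after centring). These are 38.7% and 6.45%, beside 30.0% and 4.30% of all counted genes. Gstp1, a glutathione transferase that is high in male mouse liver, stood at 30970 CPM in library 1, 1385 in library 2, 18131 in library 3 and 2030 in library 4. Tkt, of the pentose phosphate pathway, stood at 32.8, 382, 42.1 and 313 CPM.

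Sugar and amino acid genes included members that went far in either direction. Of 19 counted glycolysis genes 9 were higher and 2 lower (6 and 2 after centring). Of 17 genes of glucose and glycogen production 6 were higher and 1 lower (4 and 3 after centring), near the shares of all counted genes. Among the glycolysis genes was Pkm, the muscle and tumor form of pyruvate kinase, at 2.71, 129.6, 10.8 and 33.2 CPM in libraries 1 to 4. Hk2, a hexokinase that adult hepatocytes scarcely use, stood at 0.362, 9.12, 1.31 and 4.62 CPM. Isyna1, which makes inositol from glucose phosphate, held 6.52, 299.6, 57.7 and 241 CPM. Phgdh, the entry enzyme of serine synthesis, was among the leading genes with 0.362, 175, 18.4 and 73.7 CPM. Asns, which makes asparagine, held 2.90, 70.7, 8.44 and 53.1 CPM. Igfbp1, a secreted binder of insulin-like growth factors, held 5.79, 417, 29.5 and 237 CPM, whereas Igf1, the growth factor of adult liver, held 486, 18.4, 582 and 59.9 CPM and was lower in both. Of 30 urea cycle and amino acid genes 2 were higher and 6 lower (1 and 10 after centring). Afmid, of tryptophan breakdown, held 136, 20.9, 28.1 and 27.6 CPM, and Prodh, of proline breakdown, held 42.9, 219, 47.1 and 296 CPM.

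Secreted proteins of complement and clotting were mostly higher, 21 of 36 in both with 3 lower (11 and 3 after centring). C3, the central complement protein, stood at 125, 1100, 535 and 912 CPM in libraries 1 to 4, and clotting factor V (F5) at 8.14, 75.7, 33.7 and 75.4 CPM. C9, which forms the pore of the complement attack complex, went the other way with 220.3, 0.884, 139.7 and 0.782 CPM, a log2 ratio of -7.96 (-8.58 to -7.40) and -8.14 (-8.80 to -7.55). The other lower members, C8a (37.8, 6.19, 84.4 and 12.5 CPM) and C8b (35.7, 14.8, 55.2 and 8.47 CPM), encode parts of the same complex. C8g, a further C8 gene of the list, did not follow them and was not called (315, 368, 469.6 and 451 CPM). Of 20 acute phase genes 8 were higher and 2 lower (6 and 3 after centring), but here library 3 was the highest library for several. Saa3, an acute phase amyloid protein, held 0.362, 17.2, 250.4 and 5.98 CPM, and Orm1 held 400.3, 341, 2694 and 210.0 CPM. The 2 lower members were Saa1 (18.8, 6.50, 3606 and 8.06 CPM) and Saa2 (10.1, 2.45, 3591 and 2.86 CPM), amyloid proteins of the acute phase with near-identical sequences. Metal genes gave a like picture: Mt1, a metallothionein, held 111, 1344, 8261 and 654 CPM. Hamp, the iron hormone hepcidin, held 725, 45.4, 3085 and 60.0 CPM, lower in both libraries 2 and 4 and highest in library 3. Of 13 metal genes 5 were higher and 3 lower (5 and 5 after centring).

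Mitochondrial transcripts of the nucleus and of the mitochondrion went apart. Of 36 nuclear genes of oxidative phosphorylation 10 were lower in both and none was higher, with 22 lower after centring and 8 after centring on genes of like transcript length. Atp5k, a small subunit of ATP synthase, stood at 933, 156, 691 and 160.3 CPM in libraries 1 to 4, and Cox7c at 1853, 771, 1857 and 761 CPM. All 13 genes of the mitochondrial genome were higher in both, with log2 ratios of 2.94 to 5.84 for library 2 to 1 and 2.31 to 5.21 for library 4 to 1. Their sum was 2403 CPM in hepatocytes of library 1 and 24120, 17807 and 16735 CPM in libraries 2 to 4, while lymphocyte-gated barcodes of library 1 held 11903 CPM, so the low value of library 1 was that of its hepatocytes. Of 43 ribosomal protein genes 14 were higher and none lower, a share near that of all counted genes, and after centring none was higher and 1 was lower, but 8 were higher and none lower after centring by transcript length. Nuclear long RNAs were all higher, 4 of 4 (3 after centring), with Malat1 at 391, 1251, 839 and 950.0 CPM and Neat1 at 6.15, 93.3, 105 and 101 CPM.

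Transcript length, taken as the longest annotated transcript of each gene, moved with the calls. That transcript need not be the one present in these cells. The 466 genes lower in both had a median transcript length of 1874 bases, against 3332 for those higher and 3248 for all counted genes. In the fifth of genes with the shortest transcripts 20.6% were higher and 10.5% lower, and in the fifth with the longest 31.7% and 1.39%. The part of length, of depth and of the missing mitochondrial UMIs in these results was not tested, but the calls were recounted among cells with at least 1 mitochondrial UMI (946 of 2362 in library 1), which gave 2277 genes higher and 523 lower. Of the 15 leading genes higher in both, 15 kept their call under every alternative run other than a 4-fold threshold, and of the 15 leading lower genes 10 did, the other 5 being lost only where at least 1000 UMIs were asked for. Over all named genes, fewer calls held: 83 of 118 higher and 24 of 36 lower. Lgr5, Hk2, Cidec, Saa3 and Onecut1 lost theirs with a minimum of 1000 UMIs and in thinned cells, and Ces3b also among cells with a mitochondrial UMI. Malat1 lost its call under 4 settings, both centrings and both mitochondrial filters, and Dusp4 under 7.

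Stress and immune genes were mixed. In the unfolded protein list 13 of 22 were higher and none lower (9 after centring), with Gdf15, a stress hormone, at 4.71, 89.0, 35.1 and 49.2 CPM in libraries 1 to 4. Of 18 counted genes that respond to tissue dissociation within minutes, 11 were higher and none lower, 8 higher and 1 lower after centring, and 5 higher and 1 lower among cells with a mitochondrial UMI, where 21.1% of all counted genes were higher and 4.85% lower. Of 31 MHC class I and interferon genes 10 were higher and 2 lower (32.3% and 6.45%, 5 and 3 genes after centring). These shares lay near those of all counted genes (30.0% and 4.30%). B2m, the light chain of class I, was not called and stood at 354, 407, 599 and 369 CPM. Among 26 cytoskeleton and adhesion genes 16 were higher and 2 lower (12 and 4 after centring): Actg1, a cytoplasmic actin, stood at 129, 1345, 202 and 1044 CPM, whereas Actb, the other one, stood at 1636, 1607, 1308 and 1545 CPM. Gsn, which cuts actin filaments, held 2.71, 316, 16.5 and 122 CPM.

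Liver transcription factors and proteasome genes had few calls. Of 25 liver transcription factors none was higher and 1 was lower in both (3 after centring): Onecut1, a factor of bile duct and hepatocyte development, at 24.1, 4.05, 22.3 and 5.75 CPM in libraries 1 to 4. Cebpb stood at 208, 442, 278 and 291 CPM and Atf5 at 119, 178, 130.3 and 165 CPM. Of 25 proteasome and ubiquitin genes 1 was higher and none lower, with 2 lower after centring. In the list of insulin, growth hormone and clock genes 9 of 21 were higher and 1 lower, and after centring 6 and 6. Socs2, a target of growth hormone signalling, stood at 59.2, 34.5, 22.1 and 65.1 CPM.

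Markers of other cell types were given beside these results. The sum of 6 bile duct markers was 1386 CPM in hepatocytes of library 1, 21.4 in library 2, 450.5 in library 3 and 9.83 in library 4, most of it Spp1 (1163, 15.8, 317 and 5.37 CPM). At 1000 UMIs per cell only 1.91% of library 1 hepatocytes had an Spp1 UMI, and Spp1 lost its call in thinned cells and under the bile duct filter that follows. None of the 6 was at 0 in any library. The duct keratin Krt19 stood at 7.42, 0.272, 6.78 and 1.63 CPM. Without barcodes that held more than 1 UMI of them, 3694 genes were higher and 438 lower, and 15 of 15 Mup genes were still lower. The 7 erythroid markers summed to 127, 527, 380.3 and 195 CPM. Macrophage markers (10 genes) summed to 79.5, 52.8, 45.6 and 18.2 CPM and neutrophil markers (8 genes) to 4.89, 5.41, 23.4 and 34.1 CPM, with Ngp, Ltf, Mmp8 and Ly6g at 0 in at least 1 of libraries 1, 2 and 4. Sums for T and NK cells were highest in library 2 with 22.0 CPM and lowest in library 3 with 6.78 CPM (8 genes, with Cd3e, Trbc2 and Klrd1 at 0 in a library). They were for B and plasma cells 8.14, 13.3, 7.74 and 3.20 CPM (6 genes), for endothelial cells 26.6, 20.7, 18.9 and 18.7 CPM (8 genes) and for stellate cells and fibroblasts 2.17, 3.44, 3.39 and 3.23 CPM (7 genes, Reln and Acta2 at 0 in a library). Dendritic cell markers (7 genes, Xcr1 at 0 in a library) gave 275, 638, 519.5 and 484 CPM, of which Bst2 held 117, 465, 346 and 372 CPM, and platelet markers (4 genes, Gp9 at 0 in a library) gave 11.9, 2.24, 4.77 and 4.18 CPM. The part of other cells in the results was not tested beyond the bile duct filter.

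Library 3, which the choice of genes did not use, lay between for most of them. Of the 3253 genes higher in both, 2694 (82.8%) had a CPM in library 3 above library 1 and below both libraries 2 and 4, 380 (11.7%) were at or below library 1, and 179 (5.50%) reached library 2 or 4. Of the 466 lower genes, 348 (74.7%) lay between and 80 (17.2%) were at or above library 1. Median log2 ratios of library 3 to 1 were 0.73 for the genes higher in both, -0.58 for those lower and 0.03 over all counted genes. This comparison shares library 1 too.

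Within library 3, values differed between hepatocytes grouped by their H19 UMIs. At 1000 UMIs per cell, H19 was found in 10.4% of its hepatocytes and in 6.90% of its lymphocyte-gated barcodes. The groups are therefore read against that background. Thinned to 1000 UMIs, 2974 of its cells had no H19 UMI, 236 had 1 to 4 and 111 had 5 or more. In these classes the thinned sums held Mup genes at 44062, 28869 and 3378 CPM, and Glul at 1086, 1640 and 4477 CPM. Igf2 stood at 5.04, 63.6 and 243 CPM, Serpina1e at 3572, 2640 and 306, and the G2 and M phase genes in sum at 866, 1780 and 2838. Fabp1 did not follow them (22109, 20907 and 27622). In libraries 2 and 4 the cells without an H19 UMI also had few Mup UMIs, 251 and 2313 CPM, against 23096 in library 1, and their Glul was higher (9124 and 14024) than in cells with 5 or more H19 UMIs (3955 and 6788). The classes are ranges of a count per cell and are no cell types. Lymphocyte-gated barcodes of library 3 held Mup genes at 1448 CPM in sum, without thinning. The part of free RNA in these classes was not tested.

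**Figure D5:**
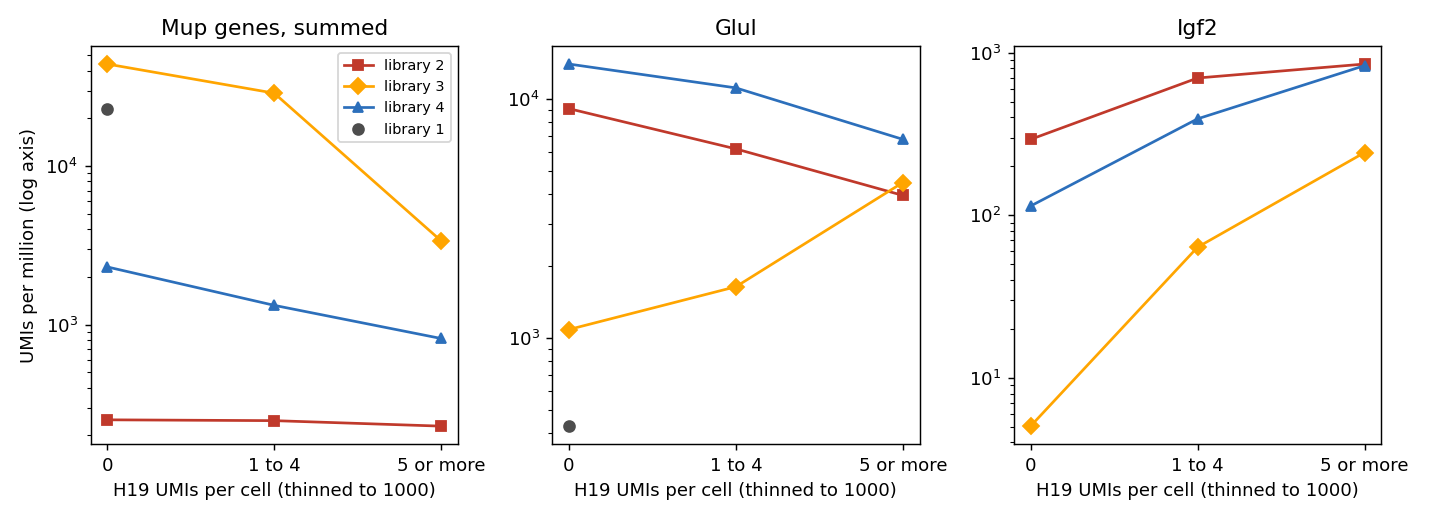
CPM (log axis) of the summed Mup genes, Glul and Igf2 in hepatocytes thinned to 1000 UMIs, by the number of H19 UMIs per cell, for libraries 2 to 4; library 1 is drawn at 0 H19 UMIs and is left out for Igf2, where its count is 0. In library 3 Mup genes go from 44062 to 3378 and Glul from 1086 to 4477 CPM.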

How the data were processed

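Liver tissue was made into single cells, passed through a mesh and freed of red cells by lysis, and libraries used a 10x Genomics 3′ kit, per the labels' protocols. UMI counts, deposited without normalization, came from Cell Ranger (version 6.0.1) according to the matrix header. Its build is mm9, per the submitters' processing notes, and no annotation is named there. A single matrix joins the 4 libraries.

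Counts were summed over hepatocytes per library and divided by their total to give CPM with exact Poisson intervals. Ratios carry exact conditional binomial intervals and shares Clopper-Pearson ones; both cover counting error only, and a count of 0 was set to 3 UMIs. Python 3.11.15 was used with scipy 1.17.1, numpy 2.4.6 and pandas 2.3.3. Doublets were left in; an alternative removed barcodes with a Scrublet score above 0.25 (scanpy 1.11.5, expected rate 8%). The 36 lists held 817 genes, of which 812 were in the matrix. Named are the 15 called genes with the largest ratios in each direction at 100 CPM or more, leaving out immunoglobulin, haemoglobin, mitochondrial and marker genes and unnamed models, and for each list up to 4 called and 2 uncalled members. Other list members, such as the antitrypsin copies, Mup20, Mup3, Apoa4, Cyp2c54, C8a, C8b, Saa1, Saa2, Dlk1 and Scd2, were chosen after their values were seen. The members and lists were chosen with earlier results of these data known. The comparison code was run on simulated Poisson counts with known fold changes. These held no differences between cells or preparations, so they say nothing about those. Transcript lengths (GENCODE M21) and start regions (RefSeq) are of another build than the files. Lengths are those of the longest transcript and were matched by gene identifier, and start regions were matched by gene name. The start regions of H19, Ly6d, Mup1 and Sult2a2 are not used here. Some members of the lists are not reported here.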

Additional observations from a re-analysis of the deposited data

Results flagged for a closer look

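H19 stood at 629 CPM in hepatocytes of library 3, which lies outside the comparison, against 0.181 CPM in library 1. Mup7 had a UMI in 19.6% of the lymphocyte-gated barcodes of library 1, which should lack it. H19 had a UMI in 81.7% of the lymphocyte-gated barcodes of library 2, with 338 barcodes at a median of 2545 UMIs. All 3 are signals in cells or libraries that the comparison does not use.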

How the results depend on the processing

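The main counts were 3253 genes higher and 466 lower in both. Centring on the median of all genes gave 1551 and 1273, and centring within bins of transcript length 1538 and 1178. A minimum of 1000 UMIs gave 1497 and 205, cells thinned to 1000 UMIs 1837 and 285, and a 4-fold threshold 1110 and 157. The thinned setting applied the hepatocyte rule again after thinning and kept 1193, 2443, 2315 and 1944 cells of libraries 1 to 4. Shares at 1000 UMIs per cell instead use all hepatocytes with at least 1000 UMIs, selected before thinning (2248, 4031, 3321 and 4696). Without a minimum count 3292 were higher and 967 lower, and with a 1.5-fold threshold 4649 and 854. The other settings stayed within 1.5 times of the main counts, from 2277 to 4245 genes higher and from 419 to 523 lower: totals without mitochondrial and the 10 top genes or without ribosomal RNA gene models, the mean of per-cell CPM, doublets removed, a stricter gate, under 10% mitochondrial UMIs, at least 1 mitochondrial UMI, few bile duct UMIs and barcodes of 1 library. Centring by length, the totals without ribosomal RNA models, the mitochondrial and bile duct filters and the single-library barcodes were chosen after seeing the data. Of 5615 log2 ratios of 234 named genes, 3831 stayed within the counting interval of the main value, 1780 left it in the same direction or uncalled, and 4 reversed, all in thinned cells: Spp1 in library 2 (1.14), and Dusp4 (-0.70), Gzma (0.88) and Pf4 (1.00) in library 4. The cause was not tested. No paired analysis was possible because each library is 1 sample and no test was made. Depth limits the genes near 0 in library 1, where 1 UMI is 0.181 CPM.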
